A study of Homo sapiens with 96 samples.

Results

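Aminoacyl-tRNA synthetase genes encode the enzymes that attach each amino acid to its tRNA. They were followed here through alternative splicing in A549 cells, an established human lung adenocarcinoma line. The members are 38 genes chosen by name, as spelled in hg19-era annotation: the cytosolic and mitochondrial synthetases and the scaffold proteins AIMP1 and AIMP2. Of these, 36 genes had at least 1 of the 1085 listed splicing events, among 239131 events of 14359 genes in all; MARS2 and PARS2 had none. The choice of members used no value measured here, but it was made with earlier results of these data known.

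The cells were treated with GSK591, an inhibitor of the Type II protein arginine methyltransferase PRMT5, with MS023, an inhibitor of Type I PRMTs, or with both (co-treatment), each at 1 µM, or with 0.01% DMSO alone. Poly(A)-RNA was sequenced after 2, 4, and 7 days of GSK591 or MS023, 2 and 4 days of co-treatment, and 4 and 7 days of DMSO, with 3 libraries in each of the 10 groups. The 2-day inhibitor groups were set against 4-day DMSO, and the control of the 7-day comparisons was taken from the labels to be 7-day DMSO. In the 2-day comparisons with DMSO, a difference by inhibitor and a difference by day cannot be told apart. Within a group, libraries are called a, b, and c after their order in the tables, and nothing says that they came from separate cultures, so p-values measure the spread between these libraries, which may be technical.

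A synthetase charges its tRNA in the cytosol or, when encoded by the genes whose names end in 2, in the mitochondrion. In the cytosol of human cells, the enzymes for methionine, glutamine, lysine, isoleucine, leucine, arginine, aspartate, and, in 1 protein, glutamate and proline are held with AIMP1 and AIMP2 in the multi-synthetase complex. KARS and GARS make both their cytosolic and their mitochondrial enzyme from 1 gene each. An intron left in a poly(A) transcript is a retained intron (RI), and where it lies in the coding part it usually brings an early stop codon.

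Splicing was measured as Ψ, the share of the form that holds an alternative segment among the forms compared in that event. It is not a share of all transcripts of the gene. Ψ was taken from reads on the junctions of the segment and within it, corrected for the lengths over which each form can be read. ΔΨ is the inhibitor mean minus the DMSO mean. An event was called when its adjusted p was under 0.05 in a quasi-binomial model of inclusion and skipping reads, with Benjamini-Hochberg adjustment over all genes' events of that type. Counts summed over all listed events came to 72359972 to 110790627 per library. A read that falls on several overlapping events is counted in each, so this exceeds the number of reads. Of the epithelial markers, KRT8 (266370 to 570978 reads on events per library), KRT18 (17743 to 222010), CDH1 (266 to 1310), and EPCAM (5 to 297) were seen, while KRT19 and CLDN4 had no reads on events. The markers of other cell types PTPRC and PECAM1 also had no reads on events, CD3E, CD14, and COL3A1 had at most 22, and COL1A1 had 9 to 120. A gene with no listed event has no reads here whether or not it is expressed. In bulk RNA, a change of Ψ in every cell and a larger change in some of the cells cannot be told apart.

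The results turn first on 8 introns of MARS, QARS, and VARS, which are printed in full because their retention was called higher in at least 4 of the 5 comparisons of GSK591 or co-treatment with DMSO. They were chosen in this way after their values were seen. Their direction and repeated calls are therefore part of the choice and no separate support. Introns are numbered 5′ to 3′ in the GENCODE canonical transcript, the sequence is that of GRCh37 (hg19) on the coding strand, 5′ to 3′, and capitals mark the first 6 and last 3 bases of each intron, at the 5′ and 3′ splice sites. The 3 introns of MARS lie at chr12:57883129-57883206, chr12:57909775-57910027, and chr12:57910121-57910217 (plus strand).
MARS intron 3: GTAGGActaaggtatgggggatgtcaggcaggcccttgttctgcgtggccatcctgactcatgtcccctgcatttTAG
MARS intron 19: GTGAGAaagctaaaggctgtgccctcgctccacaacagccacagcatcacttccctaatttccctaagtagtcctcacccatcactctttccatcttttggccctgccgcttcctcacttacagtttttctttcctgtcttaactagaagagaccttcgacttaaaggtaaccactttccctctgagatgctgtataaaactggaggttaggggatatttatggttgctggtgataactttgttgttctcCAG
MARS intron 20: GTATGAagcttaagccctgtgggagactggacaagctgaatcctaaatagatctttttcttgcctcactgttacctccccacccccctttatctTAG
The 3 introns of QARS lie at chr3:49135914-49136032, chr3:49135692-49135785, and chr3:49135551-49135624 (minus strand), and those of VARS at chr6:31750411-31750497 and chr6:31749539-31749623 (minus strand).
QARS intron 20: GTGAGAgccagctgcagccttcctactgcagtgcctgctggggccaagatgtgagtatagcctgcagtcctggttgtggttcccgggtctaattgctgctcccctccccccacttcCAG
QARS intron 21: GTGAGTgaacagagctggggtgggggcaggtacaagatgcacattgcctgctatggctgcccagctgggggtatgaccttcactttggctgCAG
QARS intron 22: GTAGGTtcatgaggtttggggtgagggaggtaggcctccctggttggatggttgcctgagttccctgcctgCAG
VARS intron 15: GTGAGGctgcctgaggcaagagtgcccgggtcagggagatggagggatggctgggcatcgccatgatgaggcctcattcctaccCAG
VARS intron 19: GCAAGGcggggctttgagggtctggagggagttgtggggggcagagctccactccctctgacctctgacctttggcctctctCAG
These introns were 74 to 253 nt long, and all but MARS intron 19 were 119 nt or shorter. VARS intron 19 begins with GC where the others begin with GT, and all 8 end with AG. All 8 lie in the coding part, and each holds a stop codon in the frame of the exon before it. The stop comes after 1 codon in MARS intron 20 and in QARS intron 21, counted from the codon that spans or opens the junction, after 3 codons in QARS intron 22, 5 in VARS intron 19, 17 in QARS intron 20, 18 in MARS intron 3, 21 in VARS intron 15, and 48 in MARS intron 19.

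The exons shown next are those whose Ψ fell in mitochondrial synthetase genes in at least 5 comparisons with DMSO, with CARS exon 2, the exon with the largest called change with MS023. The exon is in capitals, and the 20 nt before it and 6 nt after it are in lower case. HARS2 exon 7 lies at chr5:140075688-140075786 (plus strand), TARS2 exon 15 at chr1:150477108-150477209 (plus strand), VARS2 exon 27 at chr6:30893051-30893162 (plus strand), and CARS exon 2 at chr11:3068983-3069231 (minus strand).
HARS2 exon 7: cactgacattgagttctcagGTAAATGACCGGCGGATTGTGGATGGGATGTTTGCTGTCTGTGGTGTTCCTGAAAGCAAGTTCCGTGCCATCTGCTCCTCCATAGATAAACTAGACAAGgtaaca
TARS2 exon 15: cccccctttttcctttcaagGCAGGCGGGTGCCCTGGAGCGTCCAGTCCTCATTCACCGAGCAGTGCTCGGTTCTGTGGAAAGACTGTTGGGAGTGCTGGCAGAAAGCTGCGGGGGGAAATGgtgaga
VARS2 exon 27: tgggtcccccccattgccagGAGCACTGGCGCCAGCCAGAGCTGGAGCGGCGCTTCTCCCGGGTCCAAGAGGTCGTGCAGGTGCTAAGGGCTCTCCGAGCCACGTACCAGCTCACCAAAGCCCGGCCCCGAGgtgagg
CARS exon 2: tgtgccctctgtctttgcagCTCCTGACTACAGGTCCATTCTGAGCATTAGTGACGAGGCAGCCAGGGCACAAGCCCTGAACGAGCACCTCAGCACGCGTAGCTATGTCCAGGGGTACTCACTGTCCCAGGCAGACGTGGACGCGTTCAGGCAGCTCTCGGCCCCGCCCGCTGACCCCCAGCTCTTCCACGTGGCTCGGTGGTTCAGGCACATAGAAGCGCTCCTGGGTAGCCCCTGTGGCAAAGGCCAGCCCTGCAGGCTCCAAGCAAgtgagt
HARS2 exon 7 (99 nt, of 13 exons), TARS2 exon 15 (102 nt, of 18), and CARS exon 2 (249 nt, of 23) have lengths divisible by 3, so that their loss keeps the reading frame. VARS2 exon 27 (112 nt, of 30) does not.

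Most calls in the synthetase genes were made with GSK591 and with co-treatment, and few with MS023. Of 1008 events tested in at least 1 comparison with DMSO, 153 events in 30 genes were called. At 2 days, 37 of 575 events were called with GSK591 (6.43%, against 7.02% of all genes' events), 12 of 577 with MS023 (2.08%, against 3.16%), and 68 of 558 with co-treatment (12.2%, against 13.4%). At 4 days the counts were 64 of 594 with GSK591 (10.8%, against 11.2%), 12 of 523 with MS023 (2.29%, against 3.75%), and 82 of 604 with co-treatment (13.6%, against 14.7%). At 7 days, 40 of 502 events were called with GSK591 (7.97%, against 8.93%) and 12 of 486 with MS023 (2.47%, against 4.75%). In each comparison the share was thus close to or under that of all genes, so that the number of calls is not a result about these genes. The 6 listed genes with no called event were EARS2, FARS2, IARS2, WARS2, YARS2, and AIMP1. With any 1 library left out, the counts with GSK591 were 18 to 31, 31 to 47, and 23 to 29 at 2, 4, and 7 days, those with co-treatment 34 to 47 and 46 to 61, and those with MS023 2 to 8, 1 to 8, and 2 to 6.

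**Figure D1:**
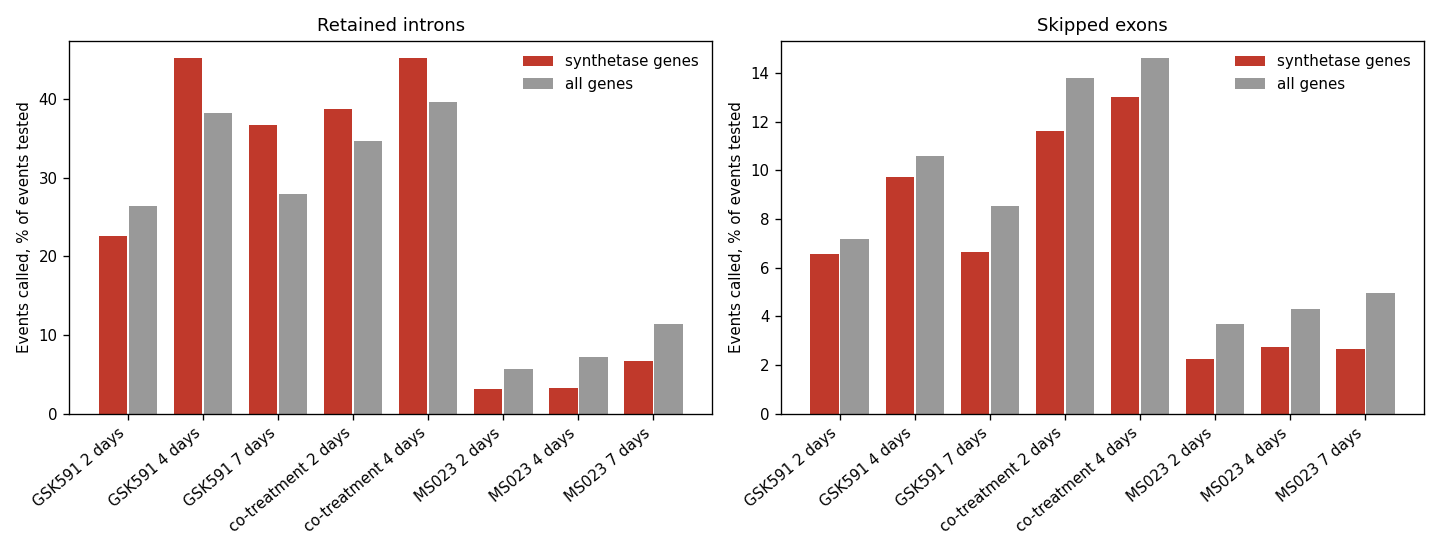
Share of tested events that were called (%, y axis) in each inhibitor group against DMSO (x axis), for retained introns and for skipped exons, with the synthetase genes in red and all genes in grey. With GSK591 or co-treatment the red bars lie at 22.6 to 45.2% for retained introns and at 6.58 to 13% for skipped exons, near the grey bars of 26.4 to 39.7% and 7.16 to 14.6%.

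Of 32 retained introns tested in 10 member genes, 20 were called in at least 1 comparison with DMSO, and 16 of them were higher with GSK591 or co-treatment. The calls with GSK591 were 7 of 31 at 2 days (22.6%, against 26.4% of all RI), 14 of 31 at 4 days (45.2%, against 38.2%), and 11 of 30 at 7 days (36.7%, against 27.9%), of which 6, 12, and 8 were higher than in DMSO (24%, 33.9%, and 21.8% of all RI were). With co-treatment, 12 of 31 were called at 2 days (38.7%, against 34.7%) and 14 of 31 at 4 days (45.2%, against 39.7%), 11 and 13 of them higher (29.7% and 33.6% of all RI). With MS023 the calls were 1 of 32, 1 of 31, and 2 of 30 at 2, 4, and 7 days (3.12%, 3.23%, and 6.67%, against 5.65%, 7.17%, and 11.4% of all RI), and each was higher than in DMSO. Of all RI, 1.44%, 1.57%, and 1.93% were called higher with MS023 at these times, and 4.21%, 5.6%, and 9.49% lower. The member calls with MS023 were the same CARS intron at each time and, at 7 days, also a NARS intron. Their direction rests on these introns alone. The median ΔΨ of the member introns was 0.00919, 0.0112, and 0.00525 with GSK591 at 2, 4, and 7 days (all RI, 0.0150, 0.0196, and 0.00762), 0.0130 and 0.0176 with co-treatment at 2 and 4 days (0.0161 and 0.0161), and 0.00112, -0.00049, and -0.00329 with MS023 (-0.00316, -0.00404, and -0.00596). The member introns had a median length of 143.5 nt, against 263 nt over all 4282 RI tested. The 16 that were higher with GSK591 or co-treatment had a median of 113 nt, and the 12 never called 136 nt.

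**Figure D2:**
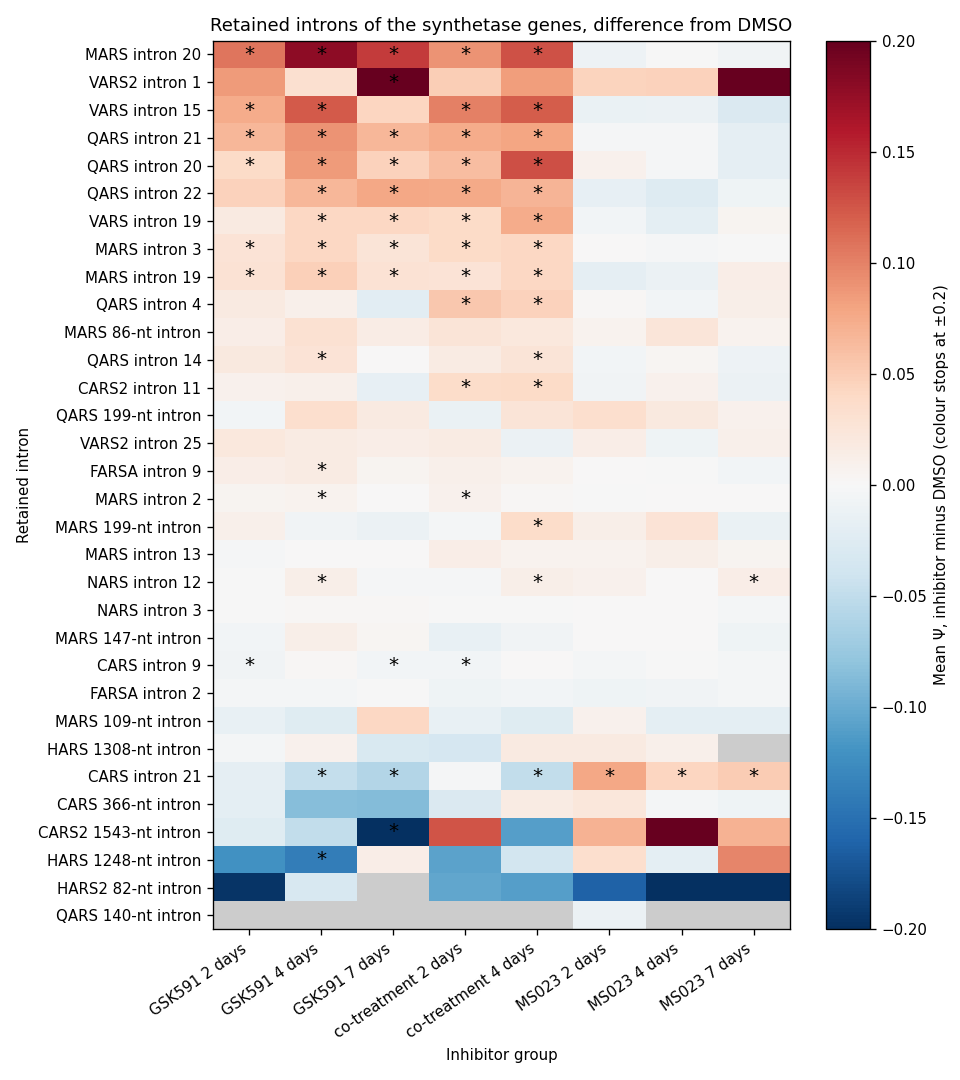
Difference in mean Ψ from DMSO (colour, inhibitor minus DMSO, stopping at ±0.2) for the retained introns of synthetase genes (y axis, length in nt) in the 8 inhibitor groups (x axis, 3 libraries each), with an asterisk where called and grey where not listed or not tested. MARS intron 20 is red and called in the 5 columns of GSK591 and co-treatment, and CARS intron 21 is red with MS023 and blue with GSK591 at 4 and 7 days.

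MARS, the methionyl-tRNA synthetase of the multi-synthetase complex, showed the largest RI change that was called in more than 1 comparison. Ψ of MARS intron 20, the last intron of the gene, was 0.0542, 0.0573, and 0.0484 in DMSO at 4 days, 0.171, 0.149, and 0.158 with GSK591 at 2 days, and 0.24, 0.216, and 0.239 with GSK591 at 4 days. Co-treatment gave 0.135, 0.144, and 0.149 at 2 days and 0.173, 0.159, and 0.211 at 4 days. All of these inhibitor libraries lay above all DMSO libraries. At 7 days Ψ was 0.0418, 0.04, and 0.0552 in DMSO and 0.17, 0.175, and 0.211 with GSK591, again without overlap. MS023 gave 0.041, 0.0407, and 0.0498 at 2 days, 0.0504, 0.0602, and 0.0463 at 4 days, and 0.0412, 0.0299, and 0.0436 at 7 days, and these libraries overlapped with those of DMSO. The mean rose from 0.0533 ± 0.00454 to 0.231 ± 0.0137 (SD, n = 3) with GSK591 at 4 days (ΔΨ 0.178, quasi-binomial adjusted p = 2.47e-11). ΔΨ was 0.106 and 0.14 with GSK591 at 2 and 7 days (quasi-binomial adjusted p = 2.73e-07 and 3.29e-09) and 0.0895 and 0.127 with co-treatment at 2 and 4 days (2.1e-08 and 8.83e-10). These 5 calls held with any 1 library left out and in limma on the log2 odds. With MS023, ΔΨ was -0.00947, -0.000989, and -0.00742, and no test passed.

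The other 2 MARS introns in the set changed by less. Ψ of intron 3 was 0.0231, 0.0119, and 0.0406 in DMSO and 0.0699, 0.0627, and 0.0695 with GSK591 at 4 days, where every treated library lay above every control (ΔΨ 0.0422, quasi-binomial adjusted p = 0.000207). Over the 5 comparisons with GSK591 or co-treatment its ΔΨ was 0.0261 to 0.0422, and all 5 were called. At 2 days the GSK591 call of intron 3 ended without DMSO library a, DMSO library b, or GSK591 library b (quasi-binomial adjusted p up to 0.091), and limma kept only the GSK591 calls at 4 and 7 days. Ψ of intron 19 was 0.0886, 0.102, and 0.0921 in DMSO and 0.16, 0.121, and 0.145 with GSK591 at 4 days, again without overlap (ΔΨ 0.0476, quasi-binomial adjusted p = 0.000128). Its ΔΨ over the 5 comparisons was 0.0267 to 0.0476, and limma made none of these calls. At 7 days the GSK591 call of intron 19 was lost without any of 4 of the 6 libraries. Introns of 147 nt and 86 nt within intron 19 are also listed, and reads on the stretch between them can count toward its inclusion. Whether the change of intron 19 lies in retention of the whole intron was not tested. Intron 2 was called higher in 2 comparisons by less than 0.01, and a 199-nt intron that shares its 5′ splice site with intron 13 in 1.

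**Figure D3:**
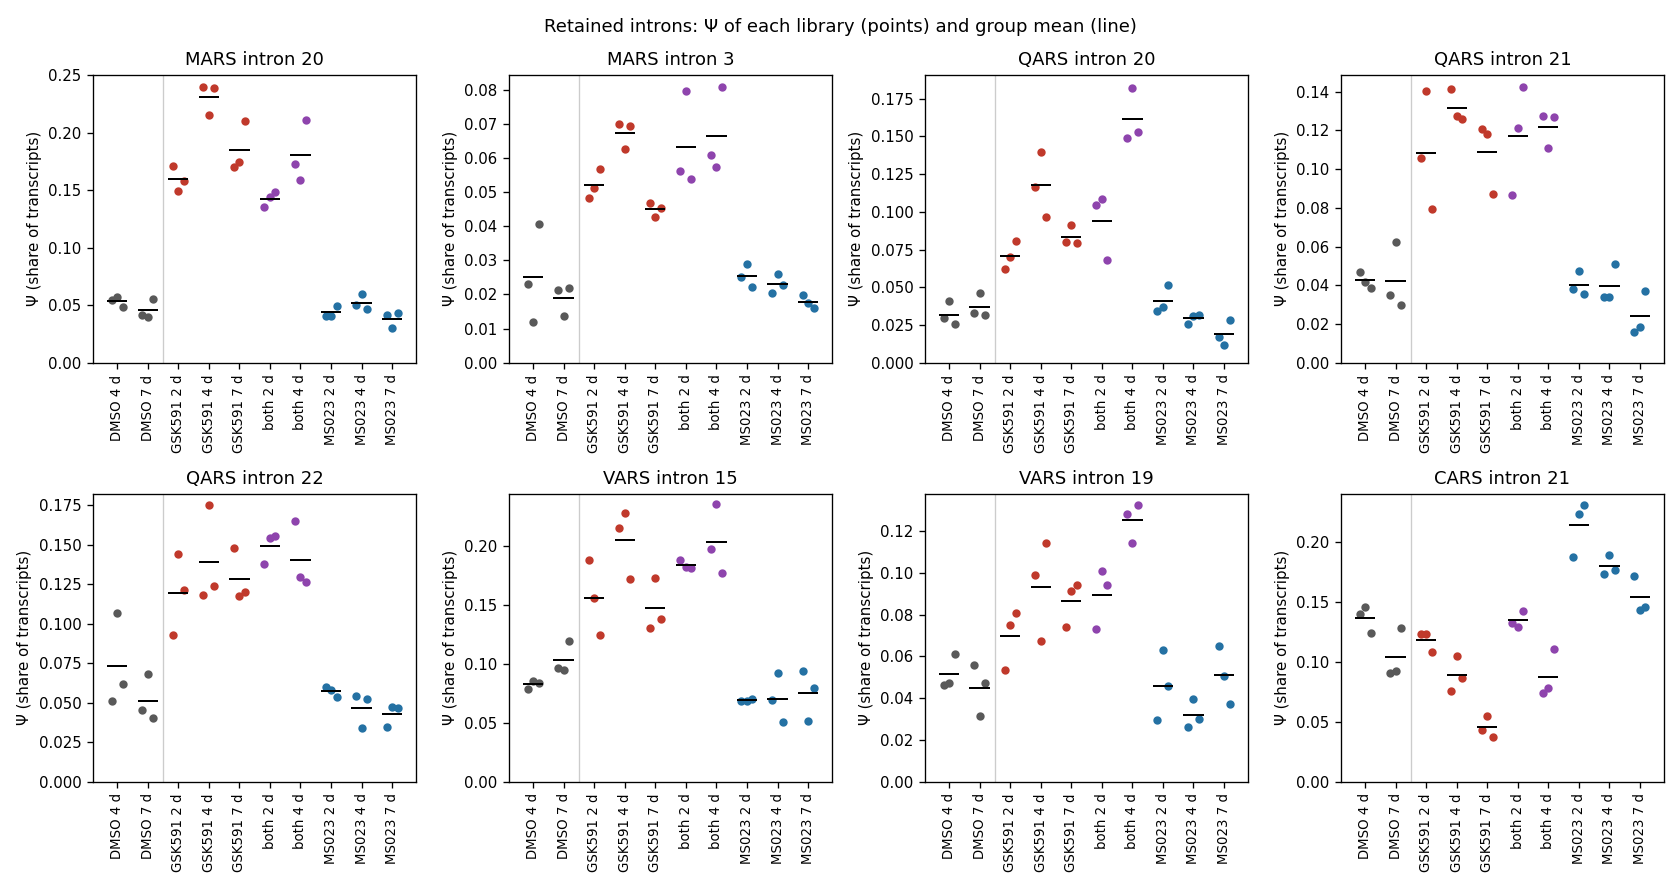
Ψ (y axis, from 0) of 8 retained introns in each of the 30 libraries (points) by group (x axis, d for days, both for co-treatment), with the mean of each group as a line. MARS intron 20 rises from 0.0484 to 0.0573 in DMSO at 4 days to 0.216 to 0.24 with GSK591 at 4 days, while the MS023 libraries stay between 0.0299 and 0.0602.

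QARS, the glutaminyl-tRNA synthetase of the same complex, held 3 neighbouring introns near its end that were higher with GSK591 and co-treatment. Ψ of intron 20 was 0.0294, 0.0408, and 0.0255 in DMSO at 4 days, 0.0619, 0.07, and 0.0807 with GSK591 at 2 days, and 0.116, 0.139, and 0.0967 at 4 days. With co-treatment it was 0.104, 0.108, and 0.0682 at 2 days and 0.149, 0.182, and 0.153 at 4 days, so that all treated libraries lay above DMSO. At 7 days it was 0.0332, 0.046, and 0.0319 in DMSO and 0.08, 0.0914, and 0.0794 with GSK591, also without overlap. With MS023 the values were 0.0343, 0.037, and 0.0518, 0.0255, 0.0313, and 0.0315, and 0.0168, 0.0116, and 0.0285 at 2, 4, and 7 days. The MS023 libraries overlapped with DMSO at 2 and 4 days and lay under DMSO at 7 days, where the test did not pass (ΔΨ -0.0181, quasi-binomial adjusted p = 0.0929). The largest change was that with co-treatment at 4 days, from 0.0319 ± 0.00793 to 0.161 ± 0.0182 (SD, n = 3, ΔΨ 0.13, quasi-binomial adjusted p = 1.57e-08). ΔΨ with GSK591 was 0.039, 0.0855, and 0.0466 at 2, 4, and 7 days (quasi-binomial adjusted p = 0.00722, 5.03e-06, and 0.00109), and 0.0617 with co-treatment at 2 days (0.000164).

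Ψ of QARS intron 21 was 0.0468, 0.0419, and 0.0388 in DMSO and 0.141, 0.128, and 0.126 with GSK591 at 4 days, where the groups were far apart. Its ΔΨ was 0.066, 0.0892, and 0.0664 with GSK591 at 2, 4, and 7 days (quasi-binomial adjusted p = 0.000556, 2.26e-06, and 0.000227). Co-treatment gave 0.0744 and 0.0794 at 2 and 4 days (0.000117 and 3.73e-06, quasi-binomial adjusted p). The 5 calls of intron 20 and of intron 21 held with any 1 library left out and in limma. Ψ of intron 22 was 0.0451, 0.068, and 0.0403 in DMSO and 0.148, 0.117, and 0.12 with GSK591 at 7 days, without overlap (ΔΨ 0.0772, quasi-binomial adjusted p = 0.000133). Its ΔΨ was 0.066 with GSK591 at 4 days and 0.076 and 0.0673 with co-treatment, while at 2 days of GSK591 the groups overlapped and the test did not pass (0.0867, quasi-binomial adjusted p). The 4-day GSK591 call of intron 22 was lost without GSK591 library b (quasi-binomial adjusted p = 0.061), and limma kept only the 7-day call among its 4 comparisons with DMSO. Further up the gene, QARS intron 4 was called higher in both co-treatment comparisons (ΔΨ 0.0546 and 0.0464) and intron 14 with GSK591 and with co-treatment at 4 days (0.0266 and 0.0262).

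VARS, the cytosolic valyl-tRNA synthetase, is not a member of that complex and binds elongation factor 1. Ψ of VARS intron 15 was 0.0786, 0.0853, and 0.0837 in DMSO at 4 days, 0.188, 0.156, and 0.125 with GSK591 at 2 days, and 0.216, 0.228, and 0.172 at 4 days. Co-treatment gave 0.188, 0.182, and 0.182 at 2 days and 0.197, 0.235, and 0.177 at 4 days, and all treated libraries were above all controls. ΔΨ was 0.0739 and 0.123 with GSK591 (quasi-binomial adjusted p = 0.00284 and 6.85e-06) and 0.101 and 0.121 with co-treatment (0.000187 and 1.55e-05), at 2 and 4 days. At 7 days the DMSO values were 0.0965, 0.0952, and 0.119 and the GSK591 values 0.131, 0.173, and 0.138. The latter were all above the former, but the test did not pass (ΔΨ 0.0437, quasi-binomial adjusted p = 0.0811). MS023 gave 0.0688, 0.0683, and 0.0705, 0.0691, 0.0922, and 0.0503, and 0.094, 0.0517, and 0.0791 at 2, 4, and 7 days, with no call. The MS023 libraries were all under DMSO at 2 and 7 days and overlapped with it at 4 days. The 4 calls of intron 15 held with any 1 library left out, and limma lost only that with GSK591 at 2 days (limma adjusted p = 0.058). Ψ of VARS intron 19 was 0.0464, 0.0473, and 0.0614 in DMSO and 0.128, 0.115, and 0.133 with co-treatment at 4 days, without overlap (ΔΨ 0.0735, quasi-binomial adjusted p = 0.000255). Its other 3 calls had ΔΨ of 0.0378 to 0.0418. They were lost on leaving out GSK591 library c at 4 days (quasi-binomial adjusted p up to 0.073), DMSO library b or GSK591 library c at 7 days (up to 0.077), and any of 4 libraries for co-treatment at 2 days (up to 0.15), and limma made none of the 3.

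CARS intron 21 (chr11:3023284-3023770, minus strand, 487 nt) of the cytosolic cysteinyl-tRNA synthetase was the intron with the largest called change with MS023, and it moved in opposite directions with the 2 inhibitors. Ψ was 0.14, 0.146, and 0.124 in DMSO at 4 days and 0.187, 0.223, and 0.231 and 0.173, 0.189, and 0.176 with MS023 at 2 and 4 days. All MS023 libraries were higher than all controls. With GSK591 it was 0.123, 0.123, and 0.108 at 2 days and 0.0756, 0.105, and 0.0862 at 4 days, and with co-treatment 0.132, 0.129, and 0.143 and 0.0736, 0.0782, and 0.111. These lay under DMSO in every library at 4 days. At 7 days Ψ was 0.0905, 0.0926, and 0.128 in DMSO, 0.0434, 0.0547, and 0.0374 with GSK591, and 0.172, 0.143, and 0.146 with MS023, 3 groups that did not overlap. With MS023, ΔΨ was 0.0772, 0.0431, and 0.05 at 2, 4, and 7 days (quasi-binomial adjusted p = 0.000333, 0.034, and 0.0027). With GSK591 it was -0.0184 (not called, 0.285), -0.0477, and -0.0585 (0.00116 and 6.38e-06, quasi-binomial adjusted p), and with co-treatment at 4 days -0.049 (0.000617). Set directly against MS023, GSK591 was lower by -0.0956, -0.0908, and -0.108 at 2, 4, and 7 days (quasi-binomial adjusted p = 2.29e-05, 7.79e-08, and 2.75e-17), calls that limma also made. The MS023 call at 4 days was lost without any of 5 of the 6 libraries (quasi-binomial adjusted p up to 0.15), and limma made none of the MS023 calls (limma adjusted p = 0.26 to 0.36) and, of those with GSK591 or co-treatment, only that at 7 days. An in-frame stop codon follows after 7 codons of the intron. The last 121 nt of the intron are also listed as an extension at an alternative 3′ splice site, described below. Reads within those 121 nt can count toward inclusion here. The other 366 nt, listed as an intron of their own, were tested and not called against DMSO. Whether the change lies in retention or in use of that splice site was not tested.

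The remaining calls among the introns were scattered. CARS intron 9 was lower with GSK591 at 2 and 7 days and with co-treatment at 2 days, each by less than 0.01. NARS intron 12 (ΔΨ 0.0115 with GSK591 and 0.0119 with co-treatment at 4 days, 0.0138 with MS023 at 7 days), FARSA intron 9 (0.0167 with GSK591 at 4 days), and CARS2 intron 11 (0.0369 and 0.0387 with co-treatment) were higher. In 3 introns with a large change, named here after their values were seen, the call was made in 1 comparison only. These were VARS2 intron 1 (0.268, GSK591 at 7 days), a 1543-nt intron of CARS2 (-0.222, GSK591 at 7 days), and a 1248-nt intron of HARS (-0.139, GSK591 at 4 days).

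In mitochondrial synthetase genes, 14 of 185 events were called with GSK591 at 2 days and all 14 were lower than in DMSO; the events share exons and are not independent. At 4 days 16 of 189 were called (4 higher, 12 lower) and at 7 days 10 of 137 (3 higher, 7 lower). Co-treatment gave 23 of 178 calls at 2 days (8 higher, 15 lower) and 25 of 201 at 4 days (8 higher, 17 lower), and MS023 1 of 204, 1 of 180, and 2 of 152. Over all genes, 4.57%, 6.65%, and 4.69% of events were called lower with GSK591 at 2, 4, and 7 days, and 9.25% and 8.93% with co-treatment at 2 and 4 days. The shares called higher were 2.45%, 4.59%, and 4.24% with GSK591 and 4.12% and 5.76% with co-treatment. In cytosolic synthetase genes the calls with GSK591 were 10 higher and 13 lower of 379 at 2 days, 23 and 25 of 395 at 4 days, and 17 and 13 of 356 at 7 days. Skipped exons of all members were called in 26 of 395, 40 of 412, and 23 of 346 cases with GSK591 at 2, 4, and 7 days (6.58%, 9.71%, and 6.65%, against 7.16%, 10.6%, and 8.55% of all skipped exons), of which 23, 31, and 15 were lower (5.82%, 8.07%, and 4.96% of all). Over all genes, 4479 of the 5508 skipped exons called with GSK591 at 2 days were also lower.

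HARS2, the mitochondrial histidyl-tRNA synthetase, had an exon 7 whose Ψ fell in all inhibitor groups but MS023 at 7 days. Its Ψ was 0.903, 0.902, and 0.911 in DMSO at 4 days, 0.76, 0.754, and 0.773 with GSK591 at 2 days, and 0.715, 0.731, and 0.613 at 4 days. Co-treatment gave 0.578, 0.676, and 0.665 at 2 days and 0.597, 0.568, and 0.563 at 4 days, and MS023 0.803, 0.793, and 0.85 and 0.799, 0.821, and 0.853. Every one of these libraries was lower than every DMSO library, and those with MS023 were lowered the least. At 7 days Ψ was 0.899, 0.846, and 0.933 in DMSO, 0.69, 0.785, and 0.716 with GSK591, and 0.848, 0.883, and 0.876 with MS023, and the MS023 libraries overlapped with DMSO. The mean fell from 0.905 ± 0.00502 to 0.576 ± 0.018 (SD, n = 3) with co-treatment at 4 days (ΔΨ -0.329, quasi-binomial adjusted p = 5.97e-15). ΔΨ was -0.143, -0.219, and -0.162 with GSK591 at 2, 4, and 7 days (quasi-binomial adjusted p = 1.43e-06, 5.47e-10, and 6.06e-12) and -0.266 with co-treatment at 2 days (4.29e-13). With MS023 it was -0.0898 and -0.0808 at 2 and 4 days (quasi-binomial adjusted p = 0.000468 and 0.00242) and -0.0237 at 7 days (0.483, not called). Co-treatment was lower than GSK591 alone by -0.123 at 2 days and -0.11 at 4 days (quasi-binomial adjusted p = 0.000519 and 0.0104). The calls against DMSO with GSK591 and co-treatment held with any 1 library left out, but limma kept only that of co-treatment at 4 days (limma adjusted p = 0.027, and 0.054 to 0.31 in the others). Those with MS023 were lost without MS023 library a or b at either time (quasi-binomial adjusted p up to 0.074 and 0.1), and the difference between co-treatment and GSK591 without co-treatment library a at 2 days (0.084) and without any of 4 libraries at 4 days (up to 0.2), and limma did not call it at either time (limma adjusted p = 0.64 and 0.67).

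TARS2, the mitochondrial threonyl-tRNA synthetase, had 4 exons that were called. The one of 99 nt was called higher with co-treatment at 4 days only (ΔΨ 0.294, quasi-binomial adjusted p = 0.000487). Ψ of exon 15 was 0.968, 0.91, and 0.962 in DMSO at 4 days, 0.521, 0.626, and 0.729 with co-treatment at 2 days, and 0.674, 0.569, and 0.644 at 4 days. With GSK591 it was 0.812, 0.874, and 0.83 and 0.887, 0.841, and 0.769, and with MS023 0.927, 0.854, and 0.926 and 0.927, 0.866, and 0.909, at 2 and 4 days. The co-treated libraries were the lowest, those with GSK591 were also all under DMSO, and those with MS023 overlapped with DMSO. At 7 days it was 0.923, 0.978, and 0.975 in DMSO, 0.673, 0.753, and 0.746 with GSK591, and 0.929, 0.93, and 0.942 with MS023. ΔΨ was -0.321 and -0.318 with co-treatment (quasi-binomial adjusted p = 1.37e-07 and 5.79e-08) and -0.108, -0.114, and -0.235 with GSK591 (0.00837, 0.00762, and 5.18e-14). It was also lower with co-treatment than with GSK591 alone, by -0.213 at 2 days and -0.204 at 4 days (quasi-binomial adjusted p = 0.00295 and 0.00323). The co-treatment calls against DMSO held with any 1 library left out and in limma, whereas the GSK591 calls at 2 and 4 days were lost without any of 4 libraries (quasi-binomial adjusted p up to 0.13 and 0.17). Limma made none of the GSK591 calls of exon 15 against DMSO (limma adjusted p = 0.29, 0.22, and 0.064 at 2, 4, and 7 days) and neither of those of co-treatment against GSK591 (0.41 and 0.36). The difference between co-treatment and GSK591 was lost without co-treatment library a or b at 2 days and without GSK591 library a or co-treatment library b at 4 days (up to 0.14 and 0.068).

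Exon 6 of TARS2 (65 nt) was called lower in both co-treatment comparisons with DMSO. Its Ψ was 1, 1, and 0.975 in DMSO and 0.866, 0.922, and 0.837 and 0.944, 0.944, and 0.705 with co-treatment at 2 and 4 days, where 1 library at 4 days was far under the other two. ΔΨ was -0.117 and -0.127 against DMSO (quasi-binomial adjusted p = 0.000173 and 0.0012) and -0.12 and -0.107 against GSK591 (0.00028 and 0.0352). The 4-day call against DMSO was lost without co-treatment library a or c (quasi-binomial adjusted p up to 0.14), and that against GSK591 without any of 4 libraries (up to 0.62, with ΔΨ of -0.147 to -0.0272). Of these 4 calls of exon 6, limma kept only that against DMSO at 2 days (limma adjusted p = 0.031, and 0.05 to 0.44 in the others). Exon 8 of TARS2 (147 nt, in frame) went the other way. Its Ψ was 0.396, 0.377, and 0.465 in DMSO and 0.678, 0.765, and 0.743 with co-treatment at 4 days, well apart (ΔΨ 0.316, quasi-binomial adjusted p = 2.59e-05). ΔΨ of exon 8 was 0.149 with GSK591 at 4 days and 0.174 with co-treatment at 2 days, calls that were lost without any of 4 and of 5 libraries. Limma made none of the 3 calls of exon 8 (limma adjusted p = 0.1 at 4 days of co-treatment, 0.36 and 0.52 in the others).

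VARS2, the mitochondrial valyl-tRNA synthetase, had an exon 27 whose Ψ fell with GSK591 and co-treatment. It was 0.841, 0.877, and 0.805 in DMSO at 4 days, 0.692, 0.498, and 0.662 with GSK591 at 2 days, and 0.558, 0.682, and 0.644 at 4 days. Co-treatment gave 0.741, 0.732, and 0.616 and 0.542, 0.687, and 0.569 at 2 and 4 days, and MS023 0.749, 0.833, and 0.679 and 0.822, 0.797, and 0.771. The GSK591 and co-treated libraries were all under DMSO, while those with MS023 overlapped with it. At 7 days Ψ was 0.903, 0.945, and 0.902 in DMSO, 0.639, 0.684, and 0.743 with GSK591, and 0.895, 0.864, and 0.871 with MS023. ΔΨ was -0.224, -0.213, and -0.229 with GSK591 at 2, 4, and 7 days (quasi-binomial adjusted p = 0.00197, 0.00106, and 2.1e-05) and -0.145 and -0.242 with co-treatment at 2 and 4 days (0.0287 and 3.61e-05). With GSK591 at 2 days the call was lost without DMSO library b or GSK591 library b (quasi-binomial adjusted p up to 0.077) and with co-treatment at 2 days without any of 5 libraries (up to 0.16), and limma made none of these calls (limma adjusted p = 0.12 to 0.32). A 25-nt extension at an alternative 5′ splice site of VARS2 (chr6:30884737-30884761) rose. Its Ψ was 0.0243, 0.0315, and 0.0207 in DMSO and 0.222, 0.222, and 0.172 with co-treatment at 2 days, without overlap (ΔΨ 0.18, quasi-binomial adjusted p = 3.84e-05). It was also called with co-treatment at 4 days (ΔΨ 0.0746) and with GSK591 at 4 days (0.0775, lost without any of 5 libraries).

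**Figure D4:**
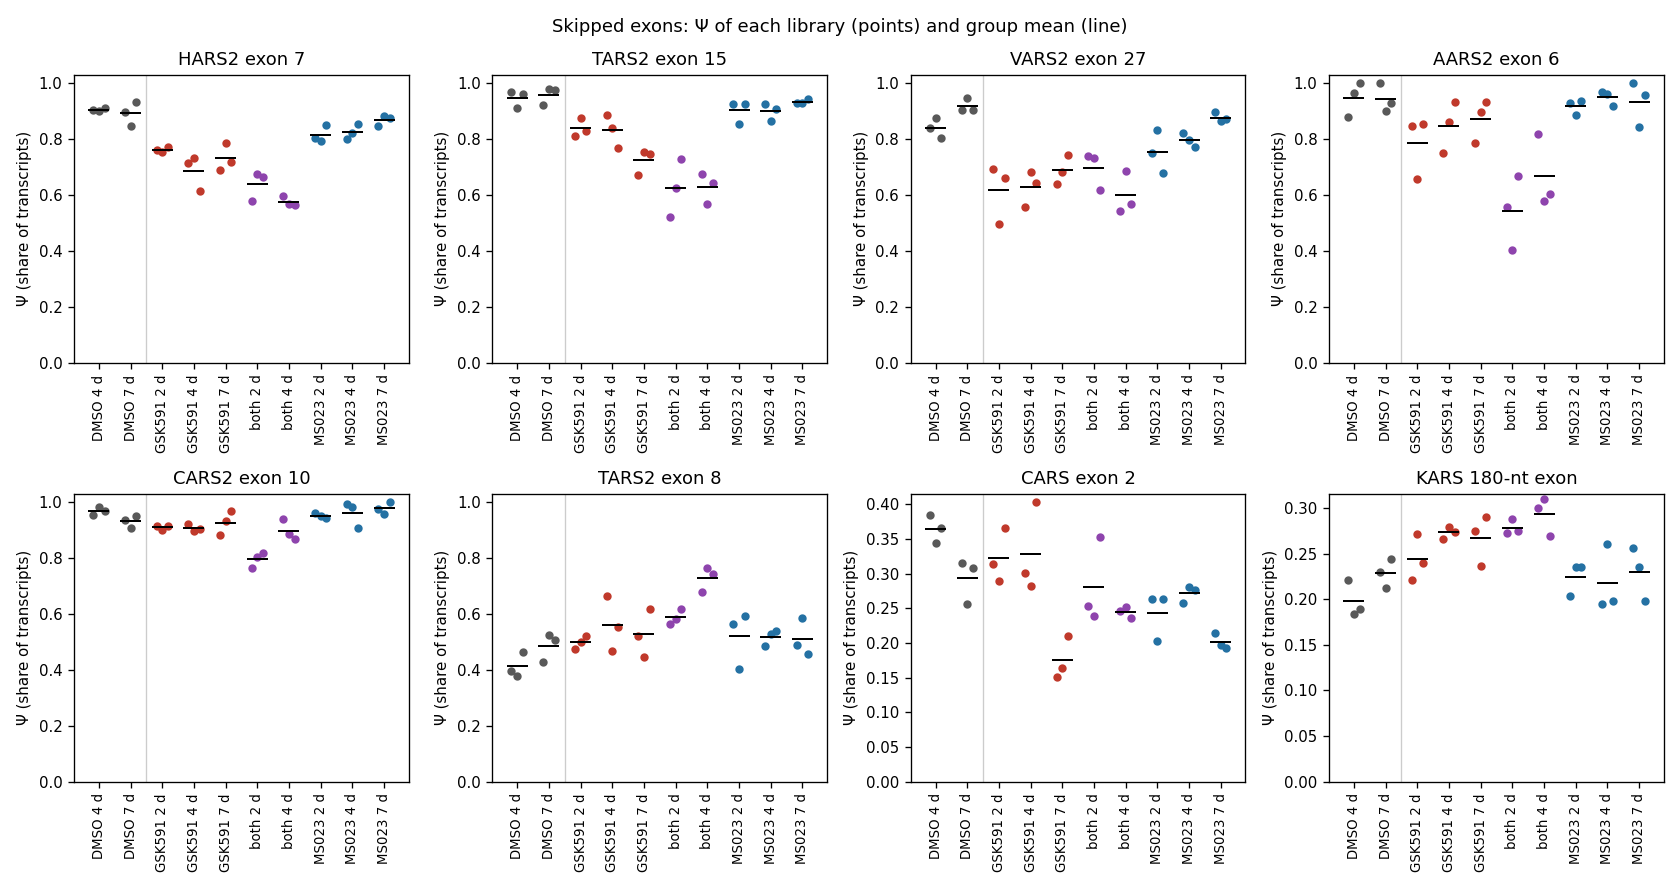
Ψ (y axis) of 8 skipped exons in each of the 30 libraries (points) by group (x axis, d for days, both for co-treatment), with the mean of each group as a line. HARS2 exon 7 lies between 0.902 and 0.911 in DMSO at 4 days and between 0.563 and 0.597 with co-treatment at 4 days.

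CARS2, the mitochondrial cysteinyl-tRNA synthetase, showed the largest called difference of any member event, in a comparison of 2-day co-treatment with 4-day DMSO. Its exon 10 is listed in a 67-nt form (chr13:111303381-111303447) and in a 464-nt form (chr13:111302984-111303447, minus strand) that holds it, so these are not separate results. Ψ of the 464-nt form was 0.693, 0.887, and 0.777 in DMSO at 4 days and 0.19, 0.345, and 0.374 with co-treatment at 2 days. Its mean was 0.786 ± 0.0974 in DMSO at 4 days and 0.608 ± 0.0531 in DMSO at 7 days (SD, n = 3). At 7 days the mean was 0.614 ± 0.103 with GSK591 and 0.863 ± 0.125 with MS023. Ψ of the 67-nt form was 0.955, 0.983, and 0.969 in DMSO and 0.762, 0.802, and 0.819 with co-treatment at 2 days. For both, the co-treated libraries were all lower (ΔΨ -0.483 and -0.175, quasi-binomial adjusted p = 2.69e-07 and 2.24e-08), and these calls held with any 1 library left out and in limma. ΔΨ of the 67-nt form was -0.0598 and -0.0616 with GSK591 at 2 and 4 days and -0.072 with co-treatment at 4 days, all called, and -0.00481 with GSK591 at 7 days, not called. Each of these 3 calls was lost without DMSO library b or either of 2 other libraries (quasi-binomial adjusted p up to 0.099) and in limma. The 464-nt form rests on 38 to 136 reads per library. An exon of 118 nt that is not in the canonical transcript (chr13:111296412-111296529) was included more. Its Ψ was 0.0584, 0.0704, and 0.111 in DMSO and 0.264, 0.298, and 0.368 with co-treatment at 4 days (ΔΨ 0.23, quasi-binomial adjusted p = 1.09e-09). At 7 days it was 0.0756, 0.119, and 0.0704 in DMSO and 0.21, 0.188, and 0.222 with GSK591 (ΔΨ 0.118, quasi-binomial adjusted p = 2.2e-07). Both pairs of groups were without overlap, and co-treatment at 4 days was higher than GSK591 alone by 0.173 (quasi-binomial adjusted p = 1.13e-07). Limma made none of these 3 calls (limma adjusted p = 0.055 to 0.37).

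AARS2, the mitochondrial alanyl-tRNA synthetase, had exon 6 (chr6:44274986-44275131, 146 nt) at 0.879, 0.964, and 1 in DMSO, 0.558, 0.402, and 0.669 with co-treatment at 2 days, and 0.82, 0.578, and 0.602 at 4 days. The co-treated libraries were all lower (ΔΨ -0.404 and -0.281, quasi-binomial adjusted p = 7.89e-06 and 0.00915), on 16 to 42 reads per co-treated library. The 2-day call was lost without co-treatment library b (quasi-binomial adjusted p = 0.056), and the calls of co-treatment at 4 days and GSK591 at 2 days (ΔΨ -0.162) without any of 5 libraries. Limma kept only the first of these 3 calls (limma adjusted p = 0.036, against 0.06 and 0.27). Of the mutually exclusive exons, the largest called change was in SARS2, the mitochondrial seryl-tRNA synthetase. The pair is a 64-nt exon at chr19:39410726-39410789 and the exon at chr19:39412032-39412086 (minus strand), and Ψ is the share of 1 of them. Which of the 2 exons Ψ counts was not checked, so the direction of the switch is not given. Ψ was 0.462, 0.445, and 0.473 in DMSO and 0.565, 0.572, and 0.61 with GSK591 at 4 days, all of the latter higher (ΔΨ 0.122, quasi-binomial adjusted p = 0.0148). The call was lost without GSK591 library b or c (quasi-binomial adjusted p up to 0.1) and in limma (limma adjusted p = 0.083), and at 2 and 7 days the event was not called. Of 86 events listed under SARS2, 8 lie outside the gene as GENCODE draws it.

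Among the cytosolic synthetases, CARS exon 2 showed the largest called change of any member event with MS023. Its Ψ was 0.384, 0.344, and 0.365 in DMSO at 4 days and 0.263, 0.202, and 0.263 and 0.258, 0.281, and 0.276 with MS023 at 2 and 4 days. With GSK591 it was 0.314, 0.29, and 0.366 and 0.301, 0.282, and 0.403, and with co-treatment 0.253, 0.238, and 0.352 and 0.245, 0.252, and 0.236. The MS023 libraries and the co-treated libraries at 4 days were all under DMSO, and the other groups overlapped with it. At 7 days Ψ was 0.315, 0.256, and 0.308 in DMSO, 0.15, 0.164, and 0.21 with GSK591, and 0.213, 0.197, and 0.192 with MS023, where both inhibitors lay under DMSO. ΔΨ with MS023 was -0.122, -0.0933, and -0.0923 at 2, 4, and 7 days (quasi-binomial adjusted p = 9.83e-05, 0.0133, and 0.00313). It was -0.118 with GSK591 at 7 days and -0.12 with co-treatment at 4 days (quasi-binomial adjusted p = 3.26e-07 and 9.76e-05). Without MS023 library b the 2-day call was lost (quasi-binomial adjusted p = 0.063), as were the calls of MS023 at 4 and 7 days and of co-treatment at 2 days (ΔΨ -0.0834) without any of 5 libraries (up to 0.31). Limma made none of the calls of this exon (limma adjusted p = 0.44 to 0.74). Also in CARS, a 121-nt extension at an alternative 3′ splice site, within intron 21, is listed in 2 events that differ in the exon joined to it. Joined to exon 21, it was called higher with MS023 at 2 days (ΔΨ 0.0472, quasi-binomial adjusted p = 0.0153) and lower with co-treatment at 4 days and GSK591 at 7 days (-0.0294 and -0.0311, quasi-binomial adjusted p = 0.0153 and 0.00203). Joined to an exon further upstream, it was listed for GSK591 at 7 days alone. The latter had a Ψ of 1 in each DMSO library and 0.892, 0.927, and 0.701 with GSK591, on 16 to 60 reads (ΔΨ -0.16, quasi-binomial adjusted p = 0.0477). That call was lost without any 1 of the 6 libraries and in limma (limma adjusted p = 0.13).

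KARS uses a 180-nt exon (chr16:75678181-75678360, minus strand) that is not in its canonical transcript, and the first coding base of all 4 GENCODE transcripts that hold the exon lies in it. It was chosen here after its values were seen. The mitochondrial form of the enzyme is known to arise by inclusion of an additional exon near the start of the transcript. Its Ψ was 0.221, 0.183, and 0.19 in DMSO at 4 days, 0.267, 0.28, and 0.274 with GSK591 at 4 days, and 0.3, 0.31, and 0.27 with co-treatment at 4 days. With co-treatment at 2 days it was 0.273, 0.288, and 0.275 and with GSK591 at 2 days 0.221, 0.272, and 0.239. All of these libraries were at or above the highest DMSO library, while at 7 days the GSK591 and DMSO groups overlapped. ΔΨ was 0.0458, 0.0752, and 0.0387 with GSK591 at 2, 4, and 7 days (quasi-binomial adjusted p = 0.0115, 3.53e-06, and 0.00624) and 0.0806 and 0.0951 with co-treatment (1.59e-06 and 3.42e-07). With MS023 it was 0.0266, 0.0196, and 0.00185, with no call. The GSK591 calls at 2 and 7 days were lost without any of 4 and of 5 libraries (quasi-binomial adjusted p up to 0.2 and 0.28), and limma made none of the 5 (limma adjusted p = 0.49 to 0.84). WARS, the cytosolic tryptophanyl-tRNA synthetase, included a 124-nt exon (chr14:100841620-100841743) more with GSK591 at 7 days. Its Ψ was 0.0803, 0.137, and 0.063 in DMSO and 0.214, 0.214, and 0.173 with GSK591, without overlap (ΔΨ 0.107, quasi-binomial adjusted p = 0.00258). With co-treatment, ΔΨ was 0.0921 at 2 days and 0.0826 at 4 days (0.0283 and 0.0429, quasi-binomial adjusted p). Each of the 3 calls was lost without any of at least 4 of the 6 libraries, and limma made none of them (limma adjusted p = 0.25 to 0.35).

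Of the scaffolds, AIMP1 had 3 listed events and no call. AIMP2 had 2 exons called, and the larger change was a fall of its 207-nt exon by 0.0347 with MS023 at 4 days (quasi-binomial adjusted p = 0.00277). The same exon fell by 0.0243 and 0.0251 with co-treatment at 2 and 4 days. In the genes AARS, DARS, EPRS, FARSA, FARSB, GARS, IARS, NARS, RARS, RARS2, SARS, TARS, and YARS, the largest called difference was 0.048. It was 0.0748 in LARS, 0.086 in LARS2, and 0.105 in NARS2.

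Set directly against each other at the same dose and time, GSK591 differed from MS023 in 37 of 415 events at 2 days (8.92%, against 11.7% of all genes' events), 62 of 418 at 4 days (14.8%, against 17.1%), and 50 of 377 at 7 days (13.3%, against 14.7%). Among the RI, 10 of 31, 11 of 31, and 12 of 29 were called (against 35%, 45.7%, and 39.9% of all RI), and 8, 9, and 8 of them were higher with GSK591 (31.4%, 40.9%, and 32.9% of all RI). MARS intron 20 was higher with GSK591 by 0.116, 0.179, and 0.147 at 2, 4, and 7 days (quasi-binomial adjusted p = 5.18e-09, 1.88e-15, and 7.86e-18). HARS2 exon 7 was lower with GSK591 than with MS023 by -0.138 at 4 days and -0.138 at 7 days (quasi-binomial adjusted p = 1.4e-05 and 1.47e-07), but not by a called amount at 2 days, and limma made neither call (limma adjusted p = 0.3 and 0.23). CARS exon 2 was lower with MS023 at 2 days (GSK591 minus MS023, 0.0801, quasi-binomial adjusted p = 0.041), a call that was lost without any of 5 libraries and in limma (limma adjusted p = 0.66).

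Co-treatment differed from GSK591 alone in 8 of 413 events at 2 days (1.94%, against 4.41% of all genes' events) and 20 of 435 at 4 days (4.6%, against 6.53%). At 2 days the calls included the exons of HARS2, TARS2, and CARS2 given above. Events that share an exon, such as both forms of CARS2 exon 10, are not independent. Limma called 0 at either time (29 and 39 with an unadjusted p under 0.05). Of 31 RI, 0 were called at 2 days in the quasi-binomial model (against 3.62% of all RI; 3 with an unadjusted p under 0.05, and 0 in limma). At 4 days 2 were called (against 9.17%), and MARS intron 20 was lower with co-treatment by -0.0507 (quasi-binomial adjusted p = 0.0079), which was lost without co-treatment library a or b (up to 0.096). The 4- and 7-day effects were compared by an interaction of inhibitor and day. For GSK591, 0 of 388 events were called in the quasi-binomial model (1.83% of all genes' events; 63 had an unadjusted p under 0.05) and for MS023 0 of 393 (0.0779%; 43), and limma called 0 in both (38 and 33). With 1 library left out, at most 2 were called for GSK591 and 0 for MS023.

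In a list of 24 genes that modify, repair, or carry tRNAs or serve elongation, 22 had tested events, chosen with earlier results of these data known. Their calls were 20 of 269, 30 of 231, and 34 of 241 with GSK591 at 2, 4, and 7 days (7.43%, 13%, and 14.1%, against 7.02%, 11.2%, and 8.93% of all genes' events). With co-treatment they were 38 of 254 and 42 of 252 at 2 and 4 days (15% and 16.7%, against 13.4% and 14.7%), and with MS023 15 of 257, 19 of 280, and 16 of 236 (5.84%, 6.79%, and 6.78%, against 3.16%, 3.75%, and 4.75%). Several events of a gene can share exons. All 20 calls with GSK591 at 2 days were in EEF1D, a subunit of elongation factor 1, the complex that VARS binds. One of a pair of mutually exclusive exons of EEF1D had a mean Ψ of 0.681 ± 0.0725 in DMSO and 0.361 ± 0.053, 0.438 ± 0.0962, and 0.316 ± 0.0264 (SD, n = 3) with GSK591 at 2 days, co-treatment at 2 days, and GSK591 at 4 days. All 3 differences were called (ΔΨ -0.32, -0.243, and -0.365, quasi-binomial adjusted p = 0.00181, 0.000453, and 3.76e-08), as were those with co-treatment at 4 days and GSK591 at 7 days (-0.393 and -0.331), and with MS023 ΔΨ was 0.0551, 0.0784, and 0.118 at 2, 4, and 7 days, not called. Other EEF1D events were called with MS023. These included a skipped exon at 4 days (ΔΨ 0.279, quasi-binomial adjusted p = 0.00267). At 7 days they included an alternative 5′ splice site (0.373, quasi-binomial adjusted p = 0.0224) and another mutually exclusive exon (-0.354, quasi-binomial adjusted p = 2.72e-05). At 2 days of MS023 none of these was called. TRNT1, which adds the CCA end to tRNAs, used an alternative 5′ splice site more with GSK591 at 4 and 7 days. Its mean Ψ was 0.569 ± 0.109 in DMSO and 0.936 ± 0.0551 (SD, n = 3) with GSK591 at 4 days, and 0.454 ± 0.0186 and 0.89 ± 0.0955 at 7 days (ΔΨ 0.368 and 0.436, quasi-binomial adjusted p = 0.00376 and 0.0121). The test did not pass with GSK591 at 2 days (ΔΨ 0.267, quasi-binomial adjusted p = 0.0775), with co-treatment at 2 and 4 days (0.151 and 0.274, quasi-binomial adjusted p = 0.309 and 0.297), or with MS023 at any time (0.463 to 0.99). The calls in this list of genes are given without the checks by leaving out a library and by limma.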

How the data were processed

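Poly(A)-RNA of 30 A549 libraries was analysed from 8 tables of splicing events. The authors trimmed the reads with Trim Galore 0.6.5, aligned them to hg19 with STAR 2.4.2a, and ran rMATS for each inhibitor group against DMSO, which per the file headers gave whole-number counts of inclusion and skipping reads for each library, effective lengths, and Ψ, in the deposited tables. The deposited p-values, FDR, and differences in Ψ are the authors' comparison and were not used. The counts are not normalized. They stand as several libraries in 1 cell and were read as such. Reads within the segment count toward inclusion.

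Ψ was recomputed from counts and effective lengths and lay within 0.0005 of the deposited Ψ. Events of all genes were fitted with a quasi-binomial logistic model (R 4.3.3) whose dispersion was moderated across events with limma 3.58.1 and held at 1 or more, with an F test and Benjamini-Hochberg adjustment within event type and comparison. An event was tested with at least 10 reads in every library of the comparison and, a requirement added after seeing the data, with both forms seen. DMSO counts were identical where tables shared an event, so inhibitor groups were also compared directly. The fit was tested on simulated data. Counts summed over events came to 72359972 to 110790627 per library, with a read on several events counted in each. The reads on each event limit its precision.

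The members and lists were chosen with earlier results of these data known. Events are named when called in at least 2 of the 8 comparisons with DMSO with a difference in Ψ of at least 0.1 where called, at most 3 per gene, with the largest called event of each type and the largest RI change with MS023. The KARS exon and further introns called higher in at least 4 of the 5 comparisons with GSK591 or co-treatment were added after their values were seen. Exon and intron numbers come from the GENCODE v44lift37 canonical transcripts, and sequences from GRCh37. Figures were drawn with matplotlib 3.10.9. Alternatives were read minima of 1 and 20, limma on the log2 odds, and leaving out each library. The transcription-rate and actinomycin D samples of the study were not analysed here.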

Additional observations from a re-analysis of the deposited data

How the results depend on the processing

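No paired analysis was possible because the tables carry no replicate numbers. Of 151 calls made for the named events, 56 kept their direction and call under every alternative run and 92 under every alternative but limma; no difference reversed. In limma on the log2 odds 57 calls held. The counts of called member events against DMSO were then 5, 11, and 8 for GSK591 at 2, 4, and 7 days, 24 and 22 for co-treatment, and 0, 0, and 0 for MS023 (48, 36, and 49 with an unadjusted p under 0.05). GSK591 against MS023 gave 14, 20, and 17 at 2, 4, and 7 days, and co-treatment against GSK591 0 and 0 (29 and 39 with an unadjusted p under 0.05). The cause of the lower limma counts was not tested.

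With 1 library left out, counts were 18 to 31, 31 to 47, and 23 to 29 for GSK591 at 2, 4, and 7 days, 2 to 8, 1 to 8, and 2 to 6 for MS023, and 34 to 47 and 46 to 61 for co-treatment. They moved by over 1.5 times without any library except DMSO a and GSK591 a (26 and 31, GSK591 at 2 days), DMSO b (8, MS023 at 2 and 4 days), DMSO c (47, co-treatment at 2 days), DMSO a, DMSO c, and GSK591 b (43, 43, and 47, GSK591 at 4 days), DMSO a and b (61 and 56, co-treatment at 4 days), and GSK591 a and b (29 and 28, GSK591 at 7 days). GSK591 against MS023 gave 20 to 32, 30 to 50, and 25 to 33, where leaving out MS023 libraries b and c at 2 days, each MS023 library at 4 days, and each library at 7 days moved the count so far. Co-treatment against GSK591 gave 3 to 10 (3 without co-treatment library a) and 4 to 16 (all but GSK591 library b moved it). The change of the GSK591 effect between days gave 0 to 2, and that of MS023 0. Read minima of 1 and 20 moved no count by over 1.5 times. Ψ without division by effective length kept the direction of all 151 differences. It could not end a call, because the test uses the counts and not the lengths. The planned edgeR alternative was not run.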
